A study of Homo sapiens with 16 samples.

Results

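The interleukin-1 (IL-1) family genes described here were 10 of the 60649 genes counted in a line of human mesenchymal stem cells (MSCs). They were the agonist cytokines IL1A, IL1B, IL33 and IL36B, the receptor antagonists IL1RN and IL36RN, the receptor chains IL1R1, IL1RAP and IL1RL1, and the signalling protein IRAK2. The genes were taken by name, and the names were chosen from the measured values after mitomycin C (MmC) in these libraries, so both comparisons of MmC are given as a description, without a test for a member. The comparisons of growth differentiation factor 11 (GDF11) played no part in the choice and were tested.

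The cells were ASC52telo, MSCs from adipose tissue that were immortalized with telomerase and are labelled wt, so all groups share 1 line and its added telomerase. MmC, which crosslinks and alkylates DNA, was given at 1.5 µg/mL for 18 h to make the cells senescent, and the cytokine GDF11 was given at 10 ng/mL during the next 10 days. Poly(A) RNA was sequenced from 4 biological replicates of each group, 16 libraries in all. The groups were young MSCs (MmC-/GDF11-), young MSCs with GDF11 (MmC-/GDF11+), senescent MSCs (MmC+/GDF11-) and senescent MSCs with GDF11 (MmC+/GDF11+). The p-values measure the spread between these replicates of a single line.

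IL-1 alpha (IL1A) and IL-1 beta (IL1B) bind the receptor IL1R1, which then recruits the accessory chain IL1RAP and signals through MYD88 and the IRAK proteins to NF-kB and AP-1. IL-33 acts in the same way through IL1RL1, and the IL-36 cytokines through IL1RL2, each again with IL1RAP, while IL1RN and IL36RN occupy IL1R1 and IL1RL2 without recruiting the accessory chain. IL-1 alpha at the surface of senescent cells is known as an upstream part of their inflammatory secretion, whereas the IL-36 cytokines and IL36RN are best known from the epidermis.

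Total counts were between 71275337 and 144204979 per library, and levels are given as CPM (counts scaled to a library of 1e6) after scaling of the libraries by the trimmed mean of M-values (TMM). All 6 MSC markers were at 1 CPM or more in every library, with summed levels between 5090 and 6698 CPM. The authors list batch effects from technical issues among the limits of the study, without naming libraries. Replicate 1 stood apart in both MmC+ groups, and whether it was such a batch was not tested. The mean squared difference between a pair of libraries, in units of the counting variance and over genes averaging 500 counts or more, was 534 to 603 for the pairs with replicate 1 in MmC+/GDF11- and 69.1 to 192 for the other pairs, and in MmC+/GDF11+ it was 469 to 610 against 54.8 to 181. In young MSCs the ranges of the pairs with and without replicate 1 overlapped. They were 230 to 421 against 74.6 to 286 in MmC-/GDF11-, and 168 to 218 against 111 to 175 in MmC-/GDF11+. The depth of replicate 1, 107776837 counts in MmC+/GDF11- and 79548222 in MmC+/GDF11+, lay within the range over all libraries. Levels are therefore given for each replicate, and the results were also computed without the 4 libraries numbered 1.

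IL1A, IL1B, IL36B, IL36RN and IL1RN lie in 1 cluster on chromosome 2. These genes, IL33, IL1RL1 and IRAK2 were higher after MmC, but IL36B had no window and those of IL1RL1 and IRAK2 are not shown. Sequences around the start of IL36RN, IL1RN, IL1A, IL1B and IL33 are shown, 1 for each gene, though IL36RN, IL1RN, IL1A and IL33 had more. They are RefSeq windows on GRCh38.p14 of 250 bases before and 50 bases after a transcript start, written 5′ to 3′ on the gene's own strand. The windows are chr2:113058388-113058687 (plus strand) for IL36RN, chr2:113127348-113127647 (plus strand) for IL1RN, chr2:112784444-112784743 (minus strand) for IL1A, chr2:112836730-112837029 (minus strand) for IL1B and chr9:6215557-6215856 (plus strand) for IL33. Capitals mark matches on either strand to the letters GGNNTTTCC for NF-kB, TGANTCA for AP-1, TTNNGNAA for C/EBP and TATAAA for the TATA box, where N is any base, and matches that overlap are run together.
IL36RN: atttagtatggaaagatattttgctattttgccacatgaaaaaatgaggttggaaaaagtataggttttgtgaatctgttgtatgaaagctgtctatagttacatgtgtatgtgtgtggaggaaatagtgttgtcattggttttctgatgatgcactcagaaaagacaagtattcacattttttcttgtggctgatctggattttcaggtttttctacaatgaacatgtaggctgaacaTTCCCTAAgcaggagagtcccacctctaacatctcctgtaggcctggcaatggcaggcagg
IL1RN: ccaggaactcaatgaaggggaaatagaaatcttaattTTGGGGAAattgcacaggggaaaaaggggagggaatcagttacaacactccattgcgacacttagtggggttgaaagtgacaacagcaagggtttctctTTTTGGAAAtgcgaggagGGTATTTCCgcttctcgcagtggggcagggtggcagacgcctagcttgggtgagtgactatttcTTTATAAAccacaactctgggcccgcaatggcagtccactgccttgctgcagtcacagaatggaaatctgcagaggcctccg
IL1A: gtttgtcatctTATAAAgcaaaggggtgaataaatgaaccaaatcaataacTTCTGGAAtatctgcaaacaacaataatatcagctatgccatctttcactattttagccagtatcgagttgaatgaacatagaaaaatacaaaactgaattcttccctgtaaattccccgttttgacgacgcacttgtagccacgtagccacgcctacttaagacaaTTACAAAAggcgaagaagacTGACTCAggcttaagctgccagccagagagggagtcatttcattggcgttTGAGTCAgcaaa
IL1B: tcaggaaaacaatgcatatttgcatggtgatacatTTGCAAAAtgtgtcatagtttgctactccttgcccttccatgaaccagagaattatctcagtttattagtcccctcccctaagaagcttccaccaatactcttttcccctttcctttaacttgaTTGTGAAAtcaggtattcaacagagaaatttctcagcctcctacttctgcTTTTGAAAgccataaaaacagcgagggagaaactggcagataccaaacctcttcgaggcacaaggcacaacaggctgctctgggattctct
IL33: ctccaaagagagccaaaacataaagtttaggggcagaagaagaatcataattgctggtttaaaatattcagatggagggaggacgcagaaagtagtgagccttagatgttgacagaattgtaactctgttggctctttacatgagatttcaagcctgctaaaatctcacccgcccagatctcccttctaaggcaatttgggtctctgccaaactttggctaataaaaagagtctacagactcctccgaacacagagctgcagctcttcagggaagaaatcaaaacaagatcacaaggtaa

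RefSeq gave 18 such windows for 9 of the 10 genes, some of them overlapping. The NF-kB letters stood in 2 of the 18, both of them overlapping windows of IL1RN that hold the same match, against 6.26% of all 35116 promoter windows. The AP-1 letters stood in 4 of the 18 against 7.71% of all windows, and 2 of these 4 are overlapping windows of IL1A that hold the same pair of matches. The overlapping windows of IL1A and of IL1RN share C/EBP matches too. The C/EBP letters stood in 11 of the 18 against 36.8%, and the TATA letters in 4 of the 18 against 11.5%. No match to any of the 4 motifs was in the IL33 window shown. A match is a string of letters in this window, and binding was not measured.

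All 4 agonist cytokines were higher in every MmC+ library than in every MmC- library. IL1A, an agonist that is active without cleavage (chr2:112773925-112784493 on hg38, minus strand, ENSG00000115008.6), was at 1.07, 0.921, 0.852 and 0.694 CPM in MmC-/GDF11- and at 1.61, 0.818, 1.30 and 0.838 CPM in MmC-/GDF11+, where replicates 1 to 4 are in order here and hereafter. It was at 13.3, 42.5, 48.9 and 27.8 CPM in MmC+/GDF11- and at 13.6, 41.2, 47.5 and 21.9 CPM in MmC+/GDF11+. Replicate 1 was the lowest library of both MmC+ groups, and no MmC+ library overlapped the young ones. For MmC the log2 fold change of IL1A was 5.23 (SE 0.480) without GDF11 and 4.77 (SE 0.469) with it.

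IL1B, the secreted agonist that inflammasome caspases cleave (chr2:112829751-112836816, ENSG00000125538.12), had the highest mean level per length of the 10 genes in senescent MSCs. Its levels were 4.87, 4.37, 4.53 and 4.32 CPM in MmC-/GDF11- and 6.36, 4.75, 3.99 and 4.19 CPM in MmC-/GDF11+. They were 75.1, 366, 293 and 175 CPM in MmC+/GDF11- and 78.2, 278, 300 and 134 CPM in MmC+/GDF11+. The young libraries were close to each other, whereas the senescent ones differed several fold, with replicate 1 lowest and replicate 4 next as for IL1A. Its log2 fold change was 5.65 (SE 0.517) without GDF11 and 5.36 (SE 0.510) with it.

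IL33, a nuclear cytokine released from damaged cells (chr9:6215786-6257983, ENSG00000137033.12), was at 2.23, 1.31, 1.26 and 1.21 CPM in MmC-/GDF11- and at 2.15, 1.27, 1.69 and 1.13 CPM in MmC-/GDF11+. It reached 12.0, 79.2, 98.7 and 75.6 CPM in MmC+/GDF11- and 11.6, 78.8, 123 and 69.7 CPM in MmC+/GDF11+. Replicate 1 was the highest young library and the lowest senescent one in both arms. On the log2 scale the fold change was 5.47 (SE 0.709) without GDF11 and 5.51 (SE 0.711) with it, and without the libraries numbered 1 it was 6.06 in both comparisons.

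IL36B, an IL-36 receptor agonist (chr2:113022089-113052867, ENSG00000136696.11), was close to absent in young MSCs, with 17, 1, 1 and 6 counts in MmC-/GDF11- and 5, 0, 3 and 3 counts in MmC-/GDF11+. Its levels in senescent MSCs were 9.42, 13.9, 19.1 and 12.5 CPM in MmC+/GDF11- and 8.44, 16.8, 15.8 and 12.1 CPM in MmC+/GDF11+. Every senescent library held at least 617 counts, and replicate 1 was again the lowest. Over the summed counts, scaled by library size, the ratio of MmC+ to MmC- was 192 without GDF11 (25 against 4912 counts, exact 95% interval 130 to 298) and 397 with it (11 against 5716 counts, 221 to 795), where the intervals cover counting error only. The fitted log2 fold change was 7.55 (SE 0.552) without GDF11 and 8.51 (SE 0.607) with it. The value without GDF11 turned on the 17 counts of 1 young library: it was 8.84 without MmC-/GDF11- replicate 1 and 8.97 without all libraries numbered 1, and the value with GDF11 was 9.16 without the latter.

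**Figure D1:**
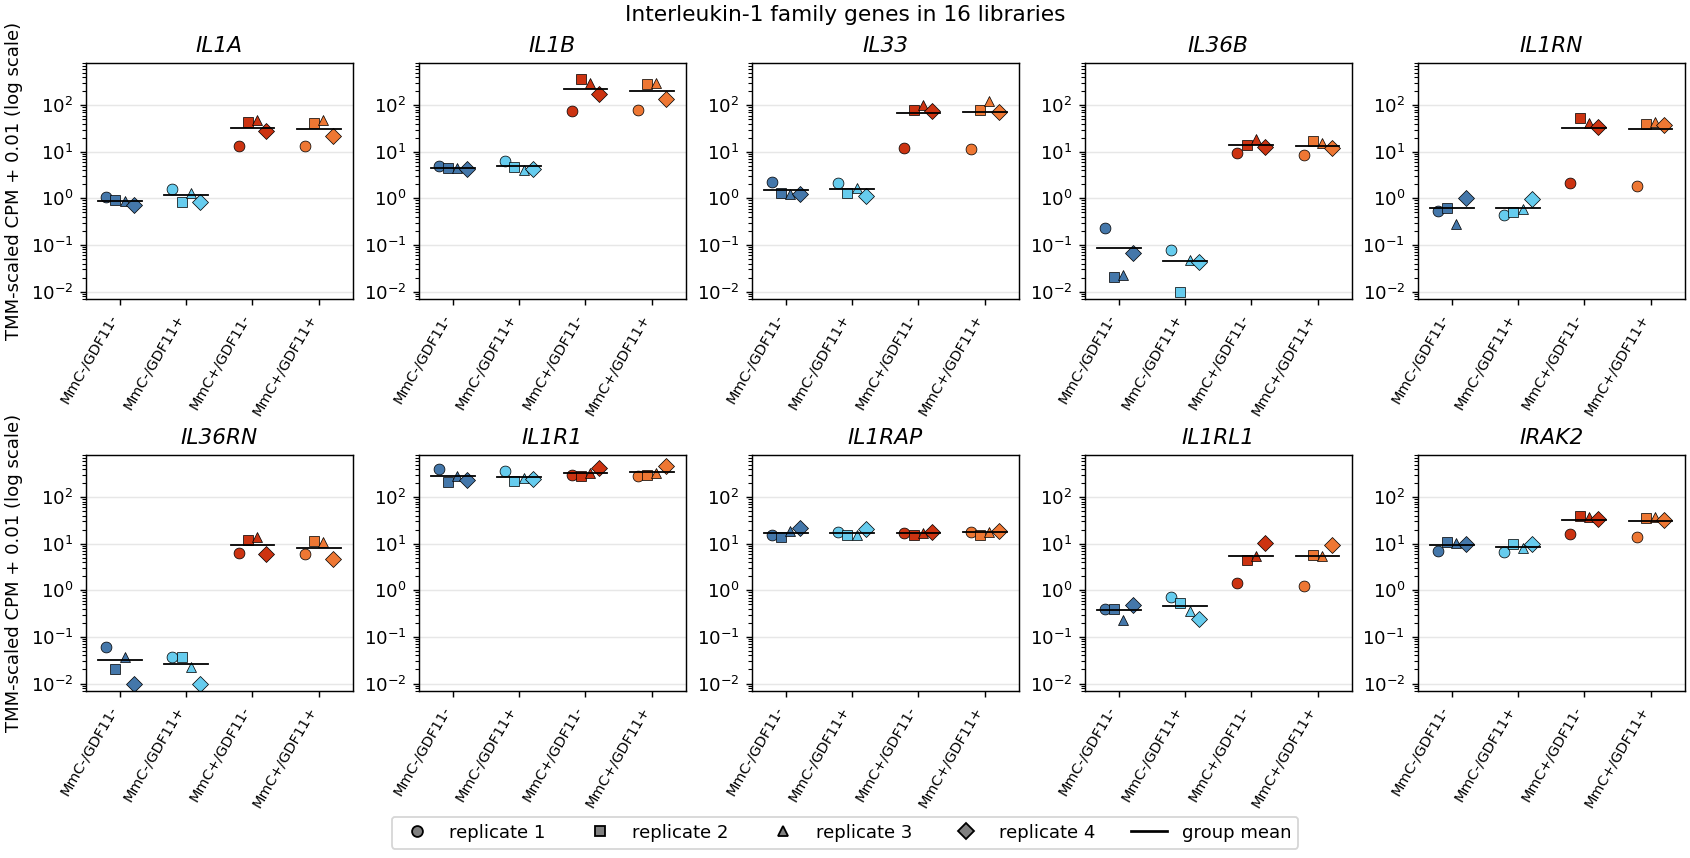
Level of each of the 10 genes in the 16 libraries, in TMM-scaled CPM plus 0.01 on a log axis, with 1 symbol per replicate number and a line at the group mean (0.01 added). In 8 panels the MmC+ points lie above all MmC- points, in the panels of IL1R1 and IL1RAP they overlap, and the circle of replicate 1 lies at 2.15 and 1.83 CPM in the IL1RN panel, far under the other MmC+ libraries.

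Both antagonists were also higher in every senescent library. IL36RN (chr2:113058638-113065382, plus strand, ENSG00000136695.15) had the largest fitted fold change of the 10 genes in both comparisons of MmC. It had 4, 1, 2 and 0 counts in MmC-/GDF11- and 2, 2, 1 and 0 counts in MmC-/GDF11+. In senescent MSCs it had 619, 1006, 1271 and 533 counts without GDF11 (6.27, 11.7, 14.2 and 6.13 CPM) and 432, 1144, 1556 and 447 counts with GDF11 (5.91, 11.6, 10.6 and 4.77 CPM). Replicates 2 and 3 lay above replicates 1 and 4, and replicate 4 was the lowest in both groups, unlike in IL1A, IL1B and IL33.

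For IL36RN the ratio of summed counts was 480 without GDF11 (7 against 3429 counts, exact 95% interval 233 to 1194) and 546 with it (5 against 3579 counts, 234 to 1683). The fitted log2 fold change was 8.81 (SE 0.589) and 8.89 (SE 0.613). Without MmC-/GDF11- replicate 1 the first of these was 9.62, and without all libraries numbered 1 it was 9.77.

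IL1RN, which binds IL1R1 and blocks both IL-1 agonists (chr2:113099315-113134016, ENSG00000136689.19), showed the widest spread between senescent libraries. Young MSCs had 0.520, 0.621, 0.275 and 1.00 CPM in MmC-/GDF11- and 0.431, 0.510, 0.588 and 0.972 CPM in MmC-/GDF11+. Senescent MSCs had 2.15, 53.6, 42.3 and 34.5 CPM in MmC+/GDF11- and 1.83, 39.9, 44.3 and 37.9 CPM in MmC+/GDF11+. Replicate 1 was higher than all young libraries but far under its own group. Between libraries of the same number, MmC+ was 4.13-fold above MmC- in replicate 1 without GDF11, against 86.3-, 154- and 34.4-fold in replicates 2 to 4, and 4.25-fold with GDF11 against 78.3-, 75.4- and 38.97-fold. For MmC with GDF11 the replicate numbers do not count as pairing. The fitted log2 fold change was 5.74 (SE 0.977) without GDF11 and 5.62 (SE 0.976) with it.

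Of the receptor chains, IL1R1 and IL1RAP overlapped between young and senescent MSCs, and IL1RL1 did not. IL1R1, the signalling receptor of IL-1 (chr2:102064544-102179874, ENSG00000115594.12), was abundant in every group, at 403, 207, 282 and 236 CPM in MmC-/GDF11- and 300, 281, 322 and 431 CPM in MmC+/GDF11-. With GDF11 it was at 359, 217, 258 and 242 CPM in young and 281, 295, 334 and 465 CPM in senescent MSCs. The groups overlapped, and the log2 fold change was 0.24 (SE 0.220) without GDF11 and 0.35 (SE 0.220) with it. Replicate 1 was the highest young library and among the lower senescent ones, and without the libraries numbered 1 the values were 0.51 and 0.61.

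IL1RAP, the accessory chain shared by the IL-1, IL-33 and IL-36 receptors (chr3:190514051-190659750, ENSG00000196083.10), lay between 14.0 and 21.6 CPM in MmC-/GDF11- and between 15.5 and 18.2 CPM in MmC+/GDF11-. Its range was 15.0 to 21.1 CPM in MmC-/GDF11+ and 15.7 to 19.1 CPM in MmC+/GDF11+, so the ranges of the senescent libraries lay inside those of the young ones. The log2 fold change was -0.03 (SE 0.134) without GDF11 and 0.01 (SE 0.134) with it, and the 95% interval of the fold, 0.804 to 1.19 and 0.83 to 1.23, was the narrowest of the 10 genes.

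IL1RL1, the IL-33 receptor (chr2:102311502-102352037, ENSG00000115602.17), was the lowest of the receptor chains per length. It was at 0.390, 0.393, 0.223 and 0.463 CPM in MmC-/GDF11- and at 0.695, 0.523, 0.345 and 0.235 CPM in MmC-/GDF11+. The senescent libraries had 1.42, 4.47, 5.43 and 10.3 CPM without GDF11 and 1.23, 5.58, 5.45 and 9.50 CPM with it, with replicate 1 lowest and replicate 4 highest in both. Its log2 fold change was 3.86 (SE 0.632) without GDF11 and 3.61 (SE 0.625) with it, and the latter was 4.23 without the libraries numbered 1. IL1RL1 and the neighbouring IL18R1 share 95 exonic bases on the same strand, so a small part of their reads could not be told apart.

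IRAK2, which joins the complex of MYD88 and IRAK4 below these receptors (chr3:10164919-10243745, ENSG00000134070.5), was at 7.12, 10.6, 10.2 and 10.1 CPM in MmC-/GDF11- and 16.0, 39.5, 37.6 and 33.4 CPM in MmC+/GDF11-. With GDF11 it was at 6.59, 9.84, 8.04 and 9.98 CPM in young and 14.0, 36.4, 37.9 and 31.6 CPM in senescent MSCs. Replicate 1 was the lowest library in all 4 groups. The log2 fold change was 1.73 (SE 0.304) without GDF11 and 1.80 (SE 0.305) with it.

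The MmC+ libraries lay wholly above the MmC- libraries for 8 of the 10 genes in each comparison, against 19.1% of all tested genes without GDF11 and 20.2% with it. The median log2 fold change was 5.35 and 5.06 for the 10 genes and -0.01 for all genes in both comparisons. Because the genes were chosen on these differences, these counts and medians describe the choice and no more. For the genes of other lists, the background is that 22.9% of the 19103 tested genes passed an adjusted p of 0.05 as higher and 22.4% as lower for MmC without GDF11, and 23.4% and 23.3% with it (edgeR's quasi-likelihood test with Benjamini-Hochberg adjustment). IL36B and IL36RN passed the filter on low counts only through the senescent libraries. The same holds for CASP5, NLRC4, CCL20, LCN2, ITGAM, FCER1G, KDR and IVL of the other lists, which could be tested only because they were higher there. In RNA from whole cultures, more cells that express a gene and more RNA per cell cannot be told apart.

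Levels of different genes were compared per kilobase of annotated exon. In MmC-/GDF11- the order was IL1R1 at 39.6 ± 12.1 CPM per kilobase (SD, n = 4), IRAK2 at 2.77 ± 0.469, IL1RAP at 1.54 ± 0.302, IL1B at 1.50 ± 0.0833, IL33 at 0.463 ± 0.150, IL1A at 0.438 ± 0.0765, IL1RN at 0.162 ± 0.0810, IL1RL1 at 0.0639 ± 0.0177, IL36B at 0.0404 ± 0.0531 and IL36RN at 0.00690 ± 0.00705. The receptor stood far above its ligands. The libraries of IL1RAP and IL1B overlapped, as did those of IL33 and IL1A, and those of IL1RN, IL1RL1 and IL36B each with the next gene in the order.

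In MmC+/GDF11- the order per kilobase was IL1B at 75.6 ± 42.6, IL1R1 at 46.8 ± 9.45, IL33 at 20.4 ± 11.6, IL1A at 16.4 ± 7.88, IRAK2 at 9.21 ± 3.12, IL1RN at 8.87 ± 5.92, IL36B at 7.33 ± 2.15, IL36RN at 2.99 ± 1.26, IL1RAP at 1.51 ± 0.102 and IL1RL1 at 0.939 ± 0.639 CPM (SD, n = 4). Only IL1R1 and IL33, IL36B and IL36RN, and IL36RN and IL1RAP were neighbours whose 4 libraries lay apart. The order was the same in MmC+/GDF11+, where IL36RN and IL1RAP overlapped.

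The level of antagonist relative to agonist was computed per kilobase within each library. IL1RN over the sum of IL1A and IL1B was 0.0648, 0.0872, 0.0382 and 0.151 in replicates 1 to 4 of MmC-/GDF11- and 0.0396, 0.0688, 0.0799 and 0.144 in those of MmC-/GDF11+. The ratio was 0.0182, 0.101, 0.0930 and 0.128 in MmC+/GDF11- and 0.0150, 0.0947, 0.0964 and 0.184 in MmC+/GDF11+. Young and senescent libraries overlapped, with medians of 0.0760 and 0.0968 without GDF11 and 0.0743 and 0.0956 with it, while replicate 1 of both MmC+ groups lay below all other libraries. Replicate 4 had the highest ratio in all 4 groups.

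IL36RN over IL36B was 0.388, 0.493, 0.434 and 0.287 in MmC+/GDF11- and 0.408, 0.404, 0.393 and 0.229 in MmC+/GDF11+. Replicate 4 had the lowest of these ratios in both groups, the reverse of its place for IL1RN. Young libraries had too few counts for this ratio, except 1 at 0.137. IL1B over IL1A lay between 2.05 and 4.17 in young and between 3.78 and 5.77 in senescent MSCs. IL1RL1 over its ligand IL33 lay between 0.0987 and 0.232 in young and between 0.0250 and 0.0772 in senescent MSCs, with no overlap.

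**Figure D2:**
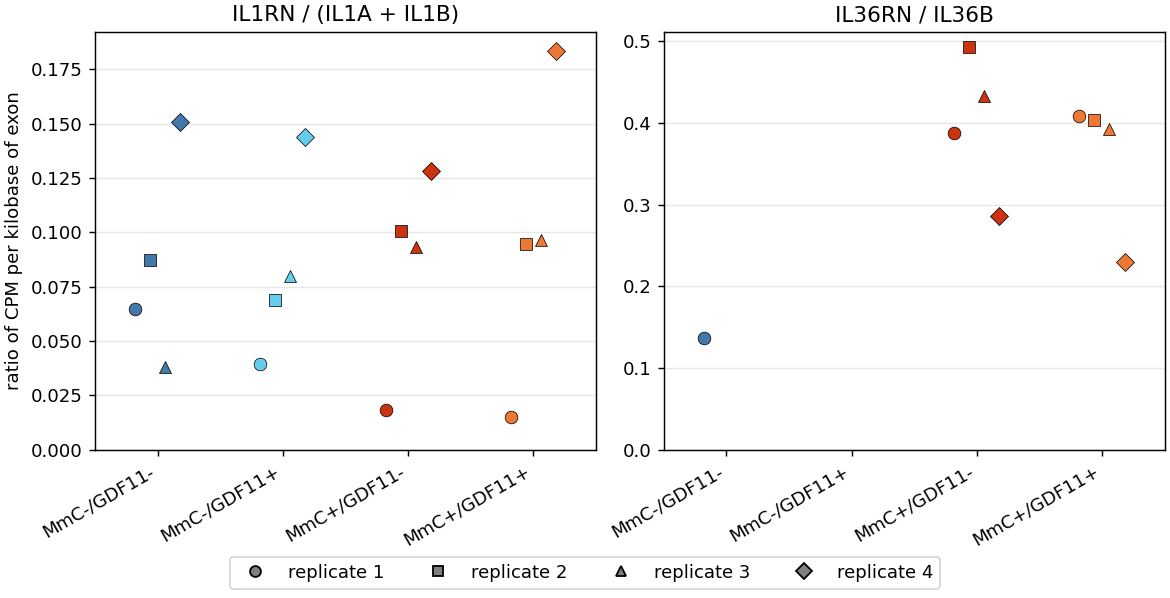
Ratio of antagonist to agonist in CPM per kilobase of exon, IL1RN over IL1A plus IL1B (left) and IL36RN over IL36B (right), with 1 symbol per library and replicate number. On the left, replicate 1 of the MmC+ groups lies at 0.0182 and 0.0150, below all other points, and on the right replicate 4 is the lowest MmC+ library at 0.287 and 0.229, with young libraries of too few counts left out.

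The replicates of senescent MSCs differed by amounts that depended on the gene. The median of replicates 2 to 4 over replicate 1 was 19.7 for IL1RN in MmC+/GDF11- and 21.8 in MmC+/GDF11+. For IL33 it was 6.58 and 6.79, for IL1RL1 3.83 and 4.54, for IL1B 3.90 and 3.56, and for IL1A 3.19 and 3.03. It was smaller for IRAK2 (2.35 and 2.59), IL36RN (1.87 and 1.80) and IL36B (1.47 and 1.87), and near 1 for IL1R1 (1.07 and 1.19) and IL1RAP (0.959 and 1.01). Both MmC+ groups thus had IL1RN at one end and the receptor chains IL1R1 and IL1RAP at the other.

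Replicate 1 was the lowest library for 7 of the 10 genes in MmC+/GDF11- and for 8 in MmC+/GDF11+, where it was lowest for 35.2% and 36.9% of all tested genes. In young MSCs it was the highest library for 6 and 7 of the 10 genes, against 29.9% and 26% of all genes. Both numbers include IL36B and IL36RN, which had few counts. Replicate 1 had 17 and 4 counts of them in MmC-/GDF11- and 5 and 2 in MmC-/GDF11+. IL36RN also had 2 counts in replicate 2 of MmC-/GDF11+. Genes at least 5-fold below the lowest other library in replicate 1 numbered 157 in MmC+/GDF11- (0.822% of tested genes) and 162 in MmC+/GDF11+ (0.848%), and IL1RN and IL33 were among them in both. These shares are a description, since the genes of a group are measured in the same libraries.

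Replicate 4 differed from replicates 2 and 3 in another set of genes. The mean of replicates 2 and 3 over replicate 4 was 2.11 and 2.33 for IL36RN, 1.88 and 2.16 for IL1B, and 1.64 and 2.02 for IL1A. It was 1.39 and 1.11 for IL1RN, and 0.482 and 0.581 for IL1RL1, which was higher in replicate 4. Over the 8 MmC+ libraries with group means subtracted, Pearson's r of log2 CPM was 0.994 for IL1RN with IRAK2, 0.985 for IL1A with IL1B and 0.984 for IL33 with IL1RN, and it was 0.520 for IL36RN with IL1RN and 0.143 for IL36RN with IL1RL1. The libraries of the 2 groups share replicate numbers, so these values rest on 4 numbers and not on 8 independent libraries.

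**Figure D3:**
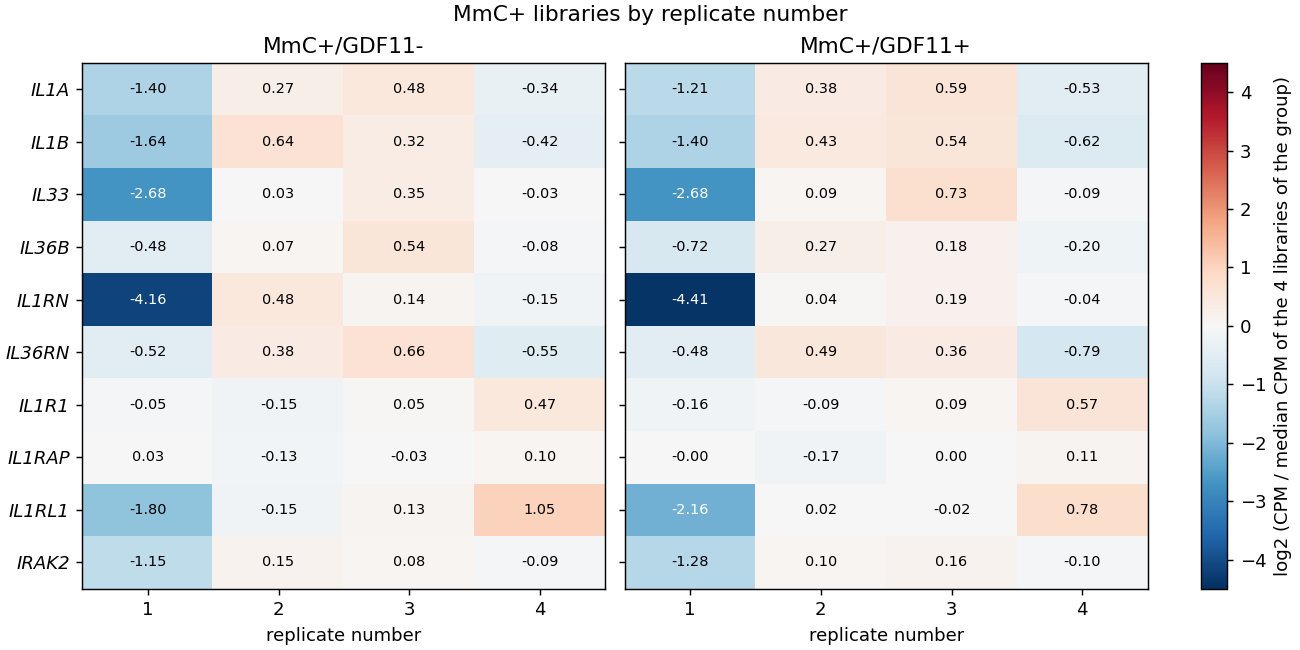
Log2 of each MmC+ library's CPM over the median of the 4 libraries of its group, for the 10 genes (rows) and replicates 1 to 4 (columns), without GDF11 (left) and with GDF11 (right). Replicate 1 is lowest for IL1RN at -4.16 and -4.41, and the rows of IL1R1 and IL1RAP show little difference between replicates other than a higher IL1R1 in replicate 4.

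Markers of other cell types were compared between the same libraries, and their part in these differences was not tested. The marker genes were named after their values were seen. The 8 monocyte or macrophage markers summed to 2.16 to 3.06 CPM in young and 4.30 to 6.12 CPM in senescent MSCs. AIF1 was at 0 in all 16 libraries, and TYROBP was at 0 in the young ones and had 3 and 2 counts in the senescent groups. Of the 5 tested, 3 rose without GDF11, among them ITGAM with a log2 fold change of 3.61 and FCER1G with 3.08, and 4 rose with GDF11 (edgeR's quasi-likelihood test with Benjamini-Hochberg adjustment). Over MmC-/GDF11- and MmC+/GDF11-, ITGAM had 6 and 82 counts and FCER1G 21 and 183, and CSF1R was at means of 0.518 and 0.568 CPM. In MmC+/GDF11- the sum of the 8 markers was 6.12 CPM in replicate 1 and 4.43 to 4.67 CPM in the others. In that replicate 1 CD14 had its highest level of the group, 4.80 CPM, and FCER1G its lowest, 0.162 CPM. The 5 endothelial markers summed to 8.69 to 12.5 CPM in young and 9.33 to 22.6 CPM in senescent MSCs, with 9.43 and 9.33 CPM in replicate 1 against 17.7 to 22.0 and 16.8 to 22.6 CPM in the other senescent libraries. Of these 5, PECAM1 (log2 fold change 1.27), KDR (2.66) and VWF (0.66) rose without GDF11, CDH5 fell (-1.51, adjusted p = 4.5e-06), and TIE1 had -0.31 and did not pass, while with GDF11 2 rose and 1 fell. PECAM1 made up most of the sum, at a mean of 5.96 CPM in MmC-/GDF11- and 14.4 CPM in MmC+/GDF11-, with 5.86 CPM in replicate 1 of the latter. KDR had 8 and 54 counts in these groups. The 9 epithelial or keratinocyte markers summed to 86.3 to 132 CPM in young and 43.4 to 60.7 CPM in senescent MSCs, and of the 6 tested 2 rose and 2 fell in each comparison. Without GDF11 these were IVL (2.74) and TP63 (1.89), which rose, and KRT14 (-1.94) and KRT10 (-0.48), which fell. ITGAM, FCER1G, KDR and IVL passed the filter on low counts only through the senescent libraries. Replicate 1 had 55.0 and 60.7 CPM of the epithelial sum against 45.7 to 52.7 and 43.4 to 55.2 CPM in the other senescent libraries.

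The genes that lie between the members on chromosome 2 were at other levels. The cluster of ligands runs in the order IL1A, IL1B, IL37, IL36G, IL36A, IL36B, IL36RN, IL1F10 and IL1RN. Summed over the 4 libraries of MmC-/GDF11- and of MmC+/GDF11-, IL37 had 20 and 24 counts, IL36G 2 and 9, IL36A 0 and 1, and IL1F10 1 and 3. With GDF11 the young and senescent groups had 8 and 26 counts of IL37, 1 and 10 of IL36G, 0 and 0 of IL36A, and 0 and 3 of IL1F10. IL36B and IL36RN, with 4912 and 3429 counts in MmC+/GDF11-, thus lay next to genes with at most 26 counts in a group. IL36G and IL36A, the other IL-36 agonists, were near the lowest level that this depth can show.

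In the receptor cluster, IL1RL2, the chain that binds IL-36 agonists and IL36RN, was at 0.364, 0.207, 0.144 and 0.174 CPM in MmC-/GDF11- and 0.517, 0.897, 0.848 and 0.863 CPM in MmC+/GDF11-. With GDF11 it was at 0.486, 0.308, 0.179 and 0.201 CPM in young and 0.205, 0.631, 0.859 and 0.971 CPM in senescent MSCs, so replicate 1 was lower after MmC there and the other numbers were higher. It rose by a log2 fold change of 1.82 (SE 0.428, adjusted p = 0.00269) without GDF11 and 1.21 (SE 0.419, adjusted p = 0.0270) with it, by edgeR's quasi-likelihood test with Benjamini-Hochberg adjustment. IL18R1, the IL-18 receptor, rose by 2.50 (SE 0.711, adjusted p = 0.00979) and 2.68 (SE 0.722, adjusted p = 0.00693). In replicate 1 IL18R1 was at 0.415 CPM in MmC+/GDF11- and 0.702 CPM in MmC-/GDF11-, and at 0.383 and 0.584 CPM with GDF11, the reverse of the other numbers. For both genes, the replicate numbers do not count as pairing in the comparison of MmC with GDF11. IL1R2, a decoy receptor for IL-1, had log2 fold changes of 0.30 (SE 0.271) and 0.58 (SE 0.274) that did not pass (adjusted p = 0.387 and 0.0898). IL18RAP had 0 counts in the young and 6 in the senescent libraries without GDF11, and 1 and 4 with it.

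**Figure D4:**
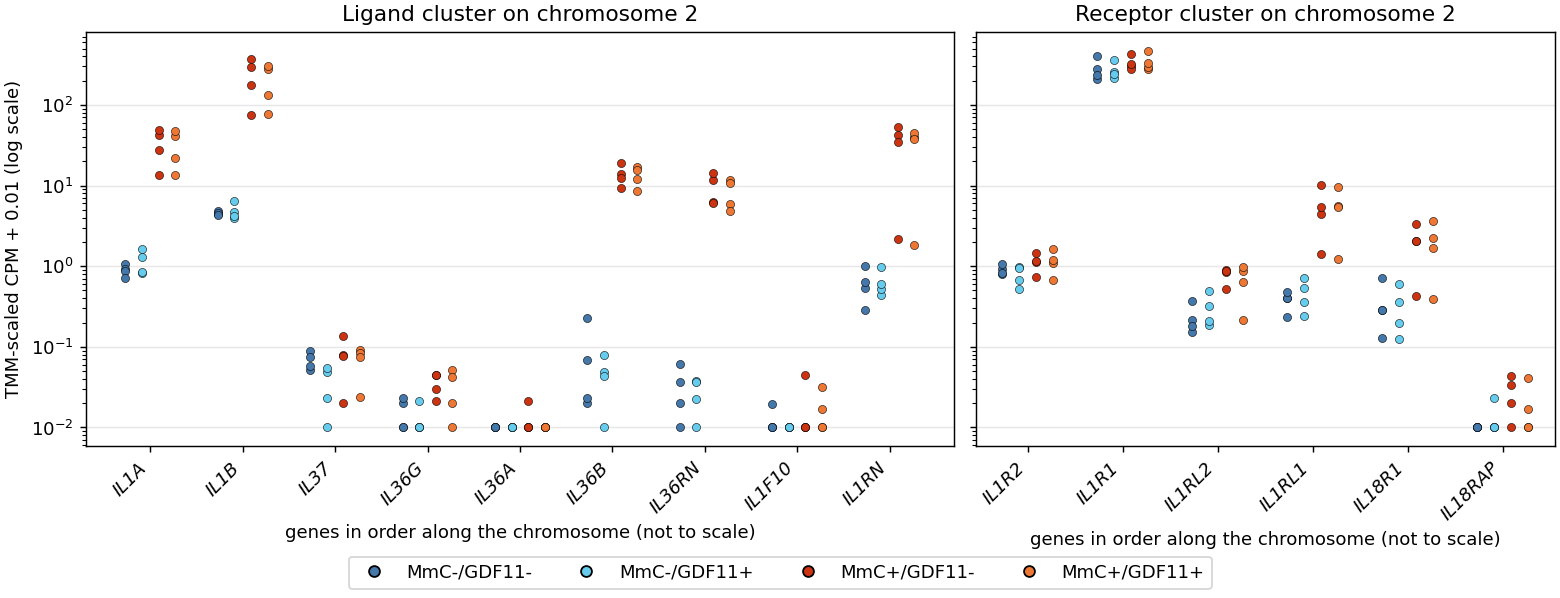
Levels of the genes of the ligand cluster (left) and the receptor cluster (right) in chromosomal order, not to scale, in TMM-scaled CPM plus 0.01 on a log axis, with 1 point per library and 1 colour per group. IL36B and IL36RN lie at 4.77 CPM or more in all senescent libraries, while IL37, IL36G, IL36A and IL1F10 lie at 0.127 CPM or less in all libraries.

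Other genes of the pathway were counted in lists. The lists were chosen with earlier results of these data known, so their p-values are not independent of that choice. Among 13 signal transduction genes, 6 rose and 3 fell without GDF11, and 5 rose and 4 fell with it, with list medians of 0.01 and 0.06 against -0.01 over all genes. The largest rises were in IRAK3, a family member that restrains signalling (1.76, SE 0.167, adjusted p = 8.9e-07), PELI1, a ubiquitin ligase for IRAK proteins (1.20, SE 0.182, adjusted p = 7.7e-05), and MYD88, the adaptor (0.51, SE 0.123, adjusted p = 0.00329). The largest falls were in TAB1, a partner of the kinase TAK1 (-0.73, SE 0.0917, adjusted p = 1.4e-05), IRAK4 (-0.60, SE 0.102, adjusted p = 0.000188) and IRAK1 (-0.49, SE 0.108, adjusted p = 0.00167). IRAK3 and IRAK4 thus changed in opposite directions. The log2 fold changes in this and the next paragraph are for MmC without GDF11, from edgeR's quasi-likelihood test with Benjamini-Hochberg adjustment.

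Of 18 genes for the processing and release of IL-1, 17 were tested, and 3 rose and 7 fell without GDF11, whereas 3 rose and 9 fell with it (list medians -0.31 and -0.35). Those that rose were CASP5, an inflammatory caspase (4.47, SE 0.856, adjusted p = 0.000558), NLRC4, an inflammasome sensor (3.96, SE 0.800, adjusted p = 0.000856), and NINJ1, which ruptures the membrane of dying cells (1.55, SE 0.0975, adjusted p = 1.7e-08). CASP5 and NLRC4 were at very low levels, with 2 and 5 counts over MmC-/GDF11- and 57 and 84 over MmC+/GDF11-, and most exonic bases of NLRC4 are also exonic in a gene on the other strand. Both genes passed the filter on low counts only through the senescent libraries. PYCARD, the inflammasome adaptor (-1.17, SE 0.134, adjusted p = 5.5e-06), AIM2, a DNA sensor (-1.06, SE 0.271, adjusted p = 0.00476), and CAPN1, a calpain subunit (-0.45, SE 0.148, adjusted p = 0.0199), fell. The antisense gene PYCARD-AS1 covers most exonic bases of PYCARD, and whether reads of such genes were counted together is not given in the sources used here. CASP1, the caspase that cleaves IL-1 beta, fell from 23.0 ± 1.45 to 18.2 ± 2.81 CPM (SD, n = 4; log2 fold change -0.34, SE 0.132, adjusted p = 0.0468), and NLRP3 was at 1.01 ± 0.205 and 0.899 ± 0.406 CPM and did not pass. Most exonic bases of NLRP3 also belong to another gene on the same strand. CASP1 and NLRP3 were named after their values were seen.

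Of 17 genes known to respond to IL-1, 16 were matched and tested, and all 16 rose without GDF11 and 15 with it, with list medians of 3.69 and 3.58. CCL20 (8.54, SE 1.09, adjusted p = 2.2e-05), CXCL8 (7.44, SE 0.601, adjusted p = 3.6e-07) and IL6 (7.38, SE 0.724, adjusted p = 2.0e-06) had the largest log2 fold changes for MmC without GDF11 by edgeR's quasi-likelihood test with Benjamini-Hochberg adjustment. CXCL8, a neutrophil chemokine, was at 19.8 ± 5.45 CPM in MmC-/GDF11- and 3431 ± 1643 CPM in MmC+/GDF11- (SD, n = 4). Replicate 1 was the lowest library for 13 of the 16 genes in MmC+/GDF11- and 14 in MmC+/GDF11+. CCL20 and LCN2, another of the 16, had at most 13 and 10 counts in a young library. Both passed the filter on low counts only through the senescent libraries. The count of 16 thus includes genes that could be tested only because they were higher there. The list was written with results of these libraries known, and it is not independent of the choice of members.

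Among the remaining receptors, 6 of 7 were tested, and 2 rose and 3 fell in each comparison. Besides IL1RL2 and IL18R1, these were IL1RAPL2 (-1.77, SE 0.535, adjusted p = 0.0130), IL1RAPL1 (-1.43, SE 0.306, adjusted p = 0.00130) and SIGIRR, an inhibitory receptor of the family (-0.59, SE 0.169, adjusted p = 0.00906), by edgeR's quasi-likelihood test with Benjamini-Hochberg adjustment. Of the 6 other ligands and binding proteins, 2 were tested. IL18BP, which binds and blocks IL-18 and overlaps NUMA1 on the other strand, fell (log2 fold change -0.88, SE 0.218, adjusted p = 0.00374), and IL18 was at 1.56 ± 0.0792 CPM in MmC-/GDF11- and 1.49 ± 0.233 CPM in MmC+/GDF11- (SD, n = 4) and did not pass.

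The question of GDF11 was whether it changed these genes in young or senescent MSCs, and no member passed the test in either. In young MSCs 0 of the 10 genes were called, as were 0% of all genes, with adjusted p = 1 for every member by edgeR's quasi-likelihood test with Benjamini-Hochberg adjustment and a lowest unadjusted p of 0.279 (IL36B). The libraries with and without GDF11 overlapped for every member, and they lay apart for 0.89% of all genes. In senescent MSCs the count was again 0, with 0% of all genes called, adjusted p = 0.999999 for every member and a lowest unadjusted p of 0.539 (IL36RN). Here too the libraries overlapped for every member, against 0.503% of all genes with libraries that lay apart. For the interaction of MmC and GDF11 it was 0 of 10 and 0% of all genes, with a lowest unadjusted p of 0.335 (IL36B). Over all genes, an unadjusted p under 0.05 was reached by 226 genes in young MSCs, 96 in senescent MSCs and 172 for the interaction with edgeR, and by 197, 62 and 137 with DESeq2, which called 1 gene in young MSCs and 0 in the others. No member was under 0.05 before adjustment in any of the 3 with all 16 libraries in 1 fit.

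The precision of these comparisons differed between members. For IL1RAP the fold for GDF11 was 1.00 in young MSCs (95% interval 0.826 to 1.22) and 1.04 in senescent MSCs (0.852 to 1.26). For IL1R1 it was 0.954 (0.691 to 1.32) and 1.03 (0.746 to 1.42). In senescent MSCs the intervals were wider for IL1A (fold 0.937, 0.529 to 1.66) and IL1B (0.868, 0.467 to 1.61). They were wider still for IL33 (1.07, 0.459 to 2.48), IL1RL1 (1.01, 0.457 to 2.24) and IL1RN (0.937, 0.303 to 2.90), whose senescent replicates differed most.

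IL36RN had a fold of 0.860 in senescent MSCs (95% interval 0.517 to 1.43), and IL36B one of 0.970 (0.565 to 1.66). In young MSCs the same genes had 0.811 (0.144 to 4.58) and 0.498 (0.133 to 1.87), where few counts set the width. For the interaction the intervals of the fold ran from 0.149 to 8.11 over the 10 genes.

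These intervals take no account of the replicate numbers, which count as pairing for GDF11 in senescent MSCs. Between libraries of the same number, GDF11+ over GDF11- was 0.942, 0.992, 0.748 and 0.777 for IL36RN, lower in 4 of 4 pairs. For IL1RAP it was 1.02, 1.01, 1.07 and 1.05, higher in 4 of 4 pairs. The other 8 genes had pairs in both directions, such as 0.853, 0.744, 1.05 and 1.10 for IL1RN. No share over all genes stands beside these directions, so nothing is read from them.

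In a fit of the 8 senescent libraries alone with the number as a block, which was added after the data were seen, no member was called (adjusted p = 0.999723 for each by edgeR's quasi-likelihood test with Benjamini-Hochberg adjustment), and the intervals were narrower. The fold of IL36RN was 0.861 (95% interval 0.772 to 0.959, unadjusted p = 0.0102), that of IL1RN 0.944 (0.801 to 1.11) and that of IL33 1.03 (0.937 to 1.14). For IL1A it was 0.934 (0.860 to 1.01), for IL1B 0.888 (0.756 to 1.04) and for IL1RAP 1.04 (0.970 to 1.11). Among the 18422 genes of this fit 0 were called and 474 had an unadjusted p under 0.05, IL36RN among them.

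**Figure D5:**
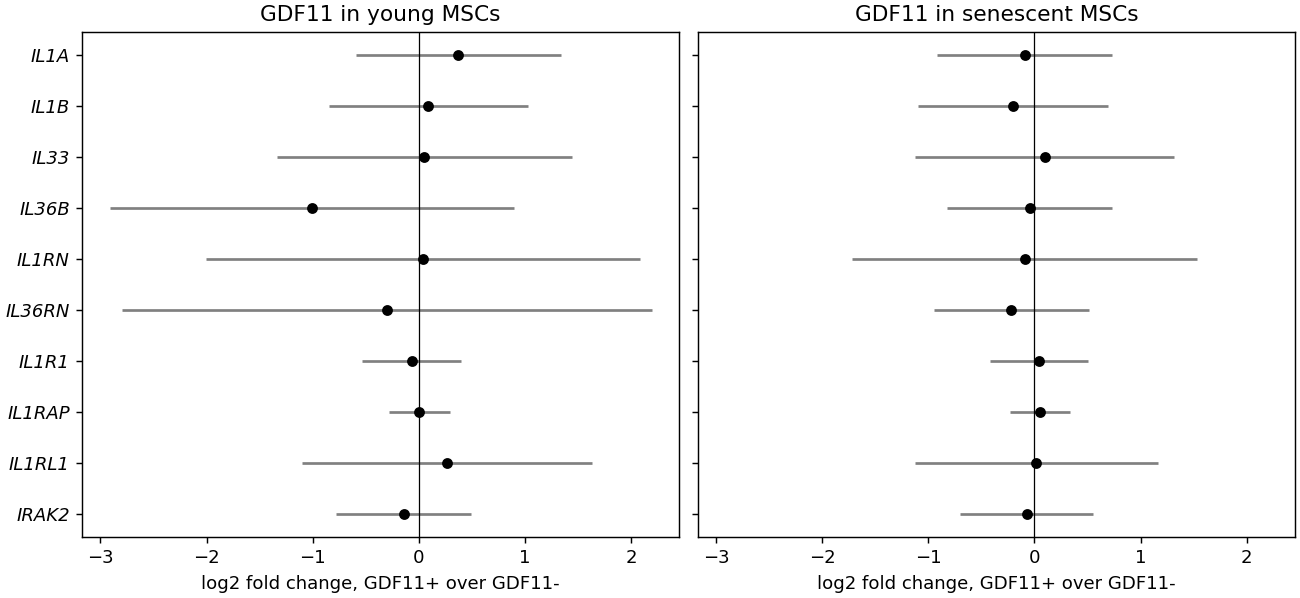
Log2 fold change of GDF11+ over GDF11- for the 10 genes in young (left) and senescent MSCs (right), with a point for the edgeR estimate and a line for its 95% interval. Every line crosses 0, with the shortest for IL1RAP and the longest for IL36RN and IL1RN on the left and for IL1RN on the right.

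The genes whose pattern was most like that of IL1B, IL1A and IL36RN were found among tested genes with a mean log2 CPM of at least 1. Over the 16 libraries, Pearson's r of log2 CPM with IL1B was highest for SERPINE2 (0.996), IL1A (0.996) and CXCL5 (0.995). For IL1A it was highest for IL1B, SLC22A4 (0.993) and BIRC3 (0.993), and for IL36RN it was highest for CTSS (0.997), ST3GAL1 (0.995) and NFKBIZ (0.995). Over the 8 MmC+ libraries with group means subtracted, the genes most like IL1B were PTPRE, MMP1 and IL7R (0.996 each), those most like IL1A were DGKI (0.993), IL7R (0.990) and MMP1 (0.988), and those most like IL36RN were CTSS (0.981), C15orf48 (0.975) and TIPARP (0.973). CTSS, a lysosomal protease, thus headed both lists for IL36RN. The first set of values rests mainly on the difference between young and senescent libraries, and all of them on shared libraries.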

How the data were processed

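Poly(A) RNA of ASC52telo MSCs was sequenced in 16 libraries of 4 groups. The authors aligned the reads with HISAT2 2.2.1 to GRCh38/hg38, counted them on GENCODE genes with featureCounts 2.0.1 and deposited the counts per gene without normalization. The library kit marks strand. The strand setting, the counting of pairs and the treatment of reads with several alignments are not given in the sources used here, so reads of overlapping antisense genes may be included.

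The test was edgeR 4.0.16 in R 4.3.3 (filterByExpr with a minimum count of 10 and a minimum total of 15, TMM, quasi-likelihood test on all 16 libraries with 1 mean per group, Benjamini-Hochberg adjustment over 19103 genes at 0.05). MmC was compared within each GDF11 arm and GDF11 within each MmC arm, with the interaction of the pair, and the steps were tested on simulated data. Symbols, positions and exon lengths came from a later GENCODE release on hg38, where 186 of 60649 identifiers had no match and SOD2 could not be matched. At most 4.7% of a member's exonic words of 31 bases (IRAK2) also stood on the 261 alternate contigs, where reads could be lost, and for IL1A, IL1B, IL36B, IL1RN and IL36RN none did. Exact intervals cover counting error only.

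The members and lists were chosen with earlier results of these data known. Named genes are the members, the 3 highest and 3 lowest called genes of each pathway list for MmC without GDF11, all genes of the chromosome 2 clusters, and for IL1B, IL1A and IL36RN the 3 genes most like each. Marker genes, CASP1 and NLRP3 were named after their values were seen. A comparison of protein sequences was planned and not made here.

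Whether equal replicate numbers pair libraries was checked by the correlation of their deviations from the group means. The numbers count as pairing for MmC without GDF11, where the lowest correlation was 0.113, and for GDF11 in senescent MSCs, where it was 0.448. They do not count as pairing where it was 0.0293 (MmC with GDF11) or 0.0982 (GDF11 in young MSCs). For the latter, replicates 1, 2 and 4 had 0.504, 0.264 and 0.502, so the division between 0.0982 and 0.113 is a loose one. The main fit used no pairing in any comparison. For GDF11 in young MSCs, 226 genes had an unadjusted p under 0.05 in that fit and 551 with the number as a block, and 0 were called in either (edgeR's quasi-likelihood test with Benjamini-Hochberg adjustment). No pair of libraries of a group differed by as little as counting noise. Alternatives were upper-quartile and RLE scaling, no filter on counts, only the libraries compared, the replicate number as a block, DESeq2 1.42.0, the 4 libraries numbered 1 left out, and each library left out in turn. A fit of the 8 senescent libraries with the replicate number as a block was added after the data were seen.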

Additional observations from a re-analysis of the deposited data

Results flagged for a closer look

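The 10 genes in 4 groups gave 40 sets of 4 libraries. In 3 of these sets 1 library stood apart from the other 3, with a gap to the nearest of them above Dixon's 95% critical value, and chance alone would give about 1 in 20. All 3 were replicate 1. IL33 in MmC-/GDF11- was 2.23 CPM in replicate 1 and 1.21 to 1.31 CPM in the others. IL1RN in MmC+/GDF11+ was 1.83 CPM in replicate 1 and 37.9 to 44.3 CPM in the others. IRAK2 in MmC-/GDF11- was 7.12 CPM in replicate 1 and 10.1 to 10.6 CPM in the others.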

How the results depend on the processing

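With the replicate number as a block, 0 members were called for GDF11 and the interaction, as without it, and the intervals for GDF11 in senescent MSCs were narrower in the blocked fit of those 8 libraries alone, as given above. Of the genes of the 5 pathway lists, 41 were called without GDF11 and 42 with it, with 38 to 42 and 37 to 42 when a library was left out and 44 and 45 with the replicate block. Over all 19103 tested genes, 8655 were called for MmC without GDF11 and 8926 with it. With the replicate block 11066 and 11267 were called, so the background also differed there. The log2 fold change of IL36B for MmC without GDF11 (7.55) was 8.84 without MmC-/GDF11- replicate 1 and 8.97 without the 4 libraries numbered 1, and that of IL36RN (8.81) was 9.62 and 9.77. The cause was not tested. No member was called for GDF11 or the interaction under any alternative, and the sign of small differences changed. Without the 4 libraries numbered 1, the log2 fold change for GDF11 in young MSCs became -0.036 for IL1B, 0.17 for IL36RN, -0.062 for IL1RAP and -0.017 for IL1RL1, and the interaction became -0.0027 for IL33, -0.41 for IL36RN and 0.040 for IL1RL1. With upper-quartile scaling IL1RAP in young MSCs was -0.0025. When 1 library was left out, the log2 fold changes that changed sign ran for GDF11 in senescent MSCs from -0.37 to 0.16 for IL1A, -0.49 to 0.13 for IL1B, -0.14 to 0.19 for IL1R1, -0.39 to 0.53 for IL1RL1, -0.48 to 0.30 for IL1RN, -0.31 to 0.45 for IL33, -0.18 to 0.16 for IL36B, -0.43 to 0.035 for IL36RN and -0.29 to 0.16 for IRAK2. For GDF11 in young MSCs they ran from -0.072 to 0.17 for IL1B, -0.24 to 0.16 for IL1R1, -0.10 to 0.13 for IL1RAP, -0.025 to 0.49 for IL1RL1, -0.27 to 0.40 for IL1RN, -0.14 to 0.30 for IL33, -1.49 to 0.28 for IL36B and -0.77 to 0.50 for IL36RN. For the interaction they ran from -0.59 to 0.036 for IL1B, -0.11 to 0.29 for IL1R1, -0.080 to 0.15 for IL1RAP, -0.66 to 0.27 for IL1RL1, -0.52 to 0.26 for IL1RN, -0.36 to 0.39 for IL33, -0.32 to 1.45 for IL36B, -0.71 to 0.55 for IL36RN and -0.15 to 0.30 for IRAK2. Genes with under 10 counts in most libraries of a group, such as IL36RN and IL36B in young MSCs, were limited by depth.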
